A study of Rattus norvegicus with 6 samples.

Results

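The genes described here are 5 that glucocorticoids are known to induce: Sgk1 (ENSRNOG00000011815), Fkbp5 (ENSRNOG00000022523), Pdk4 (ENSRNOG00000009565), Cdkn1a (ENSRNOG00000000521) and Mt2A (ENSRNOG00000043098). They were chosen by these identifiers, all 5 were found among the 22976 genes of the table, and all 5 passed the filter on low values. The file pairs no identifier with a symbol and 0 of its identifiers matched the RefSeq gene table used here, so the pairing of these 5 with their names comes from the list itself. Poly-A RNA of rats was sequenced from the RVM, the rostral ventromedial medulla. This part of the brainstem sends descending projections to the dorsal horn and the trigeminal nuclei and can strengthen or weaken pain signals there. One group had complete Freund's adjuvant (CFA, an oil emulsion with killed mycobacteria that causes inflammation) injected into the temporomandibular joint, and the other had saline injected there. Both groups received 50 µL bilaterally and were profiled on day 3, with 3 libraries each. Strain, sex and age are not stated in the labels, nor is the number of animals behind each library, so p-values measure only the spread between libraries, which may be technical. Markers of the tissue and of its cell types were not analysed here, since identifiers could not be named.

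Glucocorticoids, corticosterone in the rat, are released from the adrenal cortex in stress and bind the glucocorticoid receptor, which a chaperone complex holds in the cytoplasm. The bound receptor moves to the nucleus and acts at glucocorticoid response elements, often far from the genes it controls. Each of the 5 genes also answers to other signals: Mt2A to zinc and to inflammatory cytokines, Cdkn1a to p53, Pdk4 to FoxO factors and to PPAR receptors, which sense fatty acids, Sgk1 to osmotic stress and Fkbp5 to androgens and progestins. On the RefSeq assembly GRCr8 they lie apart, Sgk1 on chromosome 1, Pdk4 on chromosome 4, Mt2A on chromosome 19, and Fkbp5 and Cdkn1a both on chromosome 20 with 15 protein-coding genes between them.

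Mt2A stood apart from the other 4 genes in size of change, and its promoter is shown for that reason, beside that of Pdk4, the gene with the next largest rise. Each line is the 250 bases before the RefSeq start on build GRCr8, read on the gene's strand, with matches to the core of the metal response element (TGCACNC or TGCGCNC, either strand) in capitals. Metal response elements are the sites at which the zinc sensor MTF1 binds metallothionein promoters. The Mt2A stretch is chr19:10838709-10838958 on the minus strand, and the Pdk4 stretch is chr4:34568330-34568579 on the minus strand.
Mt2A: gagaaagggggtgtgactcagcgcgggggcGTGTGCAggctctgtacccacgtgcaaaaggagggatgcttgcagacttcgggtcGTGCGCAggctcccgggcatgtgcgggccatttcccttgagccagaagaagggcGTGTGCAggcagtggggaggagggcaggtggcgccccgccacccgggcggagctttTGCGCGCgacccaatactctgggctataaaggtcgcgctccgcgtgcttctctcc
Pdk4: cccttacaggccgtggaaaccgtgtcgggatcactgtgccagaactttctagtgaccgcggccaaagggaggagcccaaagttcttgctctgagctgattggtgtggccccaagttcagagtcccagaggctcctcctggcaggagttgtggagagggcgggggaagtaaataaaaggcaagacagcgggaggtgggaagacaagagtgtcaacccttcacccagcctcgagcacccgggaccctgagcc

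The Mt2A stretch held 4 matches, beginning 220, 165, 111 and 55 bases before the start, and the Pdk4 stretch held 0. In windows of 300 bases (250 before to 50 after a start), 24.2% of all 33469 RefSeq windows held at least 1 such match and 0.439% held at least 4. The windows of Fkbp5 and Cdkn1a and the 3 windows of Sgk1, which has several starts, held 0. A TATA box (TATAAA), present in 14.2% of windows, began 31 bases before the Mt2A start and was found at 2 of the 3 Sgk1 starts. None of the 7 windows held the glucocorticoid response element core (half-sites GNACA and TGTNC, 3 bases apart), which 0.439% of all windows held, nor the FoxO letters GTAAACA, which 3.78% held. The antioxidant response element core (TGAC and GC, 3 bases apart), held by 12.1% of windows, matched once in the windows of Mt2A and Cdkn1a, and the E-box CACGTG, held by 6.42%, matched once in that of Mt2A. Both strands were searched, and no match overlapped another. A match is a stretch of letters and not a measured binding site, and these windows do not reach distant elements.

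**Figure D1:**
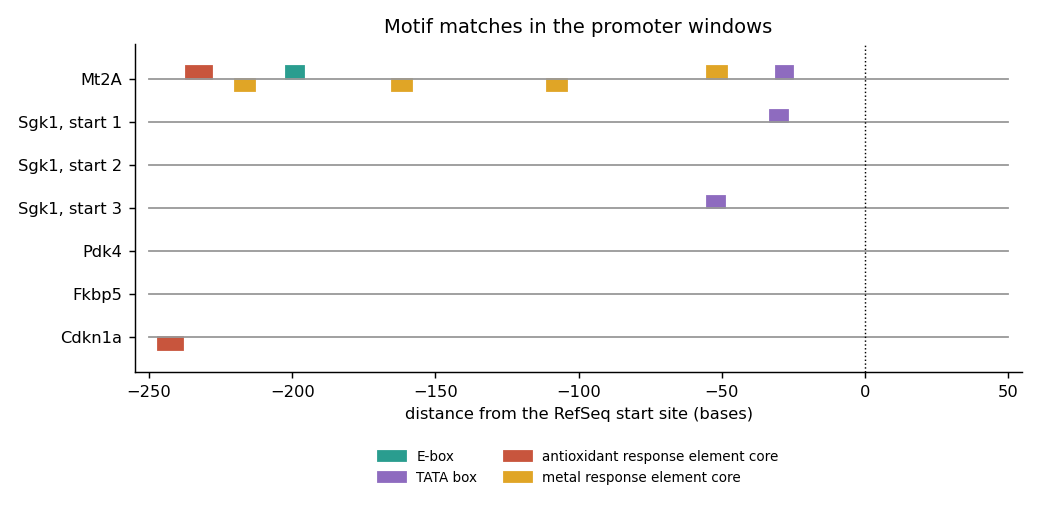
Motif matches in the windows of the 5 genes, drawn by distance from the RefSeq start site in bases, with matches on the gene's strand above the line and on the other strand below it. The 4 matches to the metal response element core are all in the Mt2A window.

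CFA libraries were compared with saline libraries to find transcripts of the RVM that differ when the jaw joint is inflamed. Of the 5 genes, 3 rose in CFA (Mt2A, Pdk4 and Sgk1), 0 fell, and Fkbp5 and Cdkn1a did not pass the test. The test was limma on log2(FPKM + 1) over the 13566 genes whose mean reached 1 FPKM (a fragment count divided by gene length and by the library total), at a Benjamini-Hochberg adjusted p of 0.05. Over all genes tested, 18.8% passed, 11.3% as higher and 7.48% as lower. The groups did not overlap in 3 of the 5 genes, all higher in CFA, against 37.7% of all genes tested in either direction and 21.2% higher in CFA. A rise of at least 2-fold past the adjusted threshold was seen in 1 of the 5, Mt2A, against 1.34% of all genes tested. The median log2 change was 0.15 over the 5 genes and 0.012 over all genes tested. No test of the 5 as a set is given, since they were chosen with results of these data known.

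Mt2A encodes a metallothionein, a small cysteine-rich protein that binds zinc and copper and scavenges radicals. Its level was 17.2, 18.0 and 21.7 FPKM in saline replicates 1, 2 and 3 and 73.1, 75.1 and 75.4 FPKM in CFA replicates 1, 2 and 3. The lowest CFA library lay 51.4 FPKM above the highest saline library. The mean went from 18.9 ± 2.41 to 74.6 ± 1.298 FPKM (SD, n = 3 each), a ratio of 3.94. On the log2 scale of FPKM + 1 this was a rise of 1.93 with an SE of 0.074 (limma, adjusted p = 1.63e-06). The 95% interval of the fold was 3.38 to 4.29 on the scale of FPKM + 1. Of all genes tested, 33 (0.243%), Mt2A included, rose at least this much, all of them past the adjusted threshold. Of the 1962 genes with a mean over the 6 libraries of 20 to 50 FPKM, 7 (0.357%), Mt2A included, rose as much. Mt2A is in this class through its mean of 46.7 FPKM, which lies above all its saline libraries and below all its CFA libraries.

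Mt2A is short, so its FPKM rest on few fragments for their size. Its length worked out from the table was 391 bases, and its fragments numbered 302, 242 and 324 in the saline libraries and 1093, 809 and 953 in the CFA libraries. Over the 13563 genes tested that had whole fragments, the median variance was 2.02 times counting noise among saline libraries and 1.97 times among CFA libraries. Whether that spread lies between animals or is technical was not tested. These multiples, here and below, take each fragment as an independent count. Since a fragment may be a read or a pair, their size against counting noise is uncertain. For Mt2A, saline replicate 3 was the highest of its group. Its variance among the saline libraries was 4.77 times counting noise, above that of 80.6% of genes tested. Among the CFA libraries the variance was 0.313 times counting noise, above that of 10.5% of genes tested. The CFA libraries thus lay closer together than the saline ones. Variances of 3 libraries are imprecise, and this difference in spread was not tested. In the RefSeq annotation its protein-coding neighbours are Mt1 and Mt3, also metallothioneins. The sources used here do not say how shared reads were counted, so fragments of close relatives may be included in its value. In bulk tissue, more cells that express a gene and more RNA per cell cannot be told apart.

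**Figure D2:**
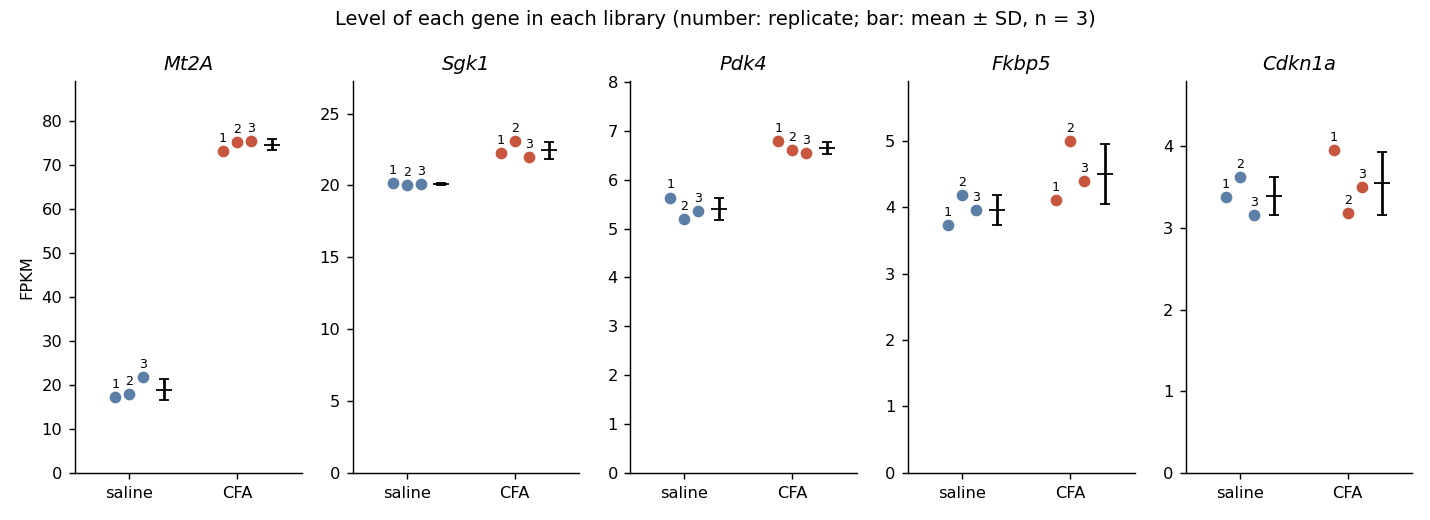
Level of each gene in FPKM in the 3 saline and 3 CFA libraries, each point a library with its replicate number, with the mean and SD of each group beside the points and axes that start at 0. The CFA libraries of Mt2A lie between 73.1 and 75.4 FPKM, far above its saline libraries, those of Sgk1 and Pdk4 lie above theirs by little, and those of Fkbp5 and Cdkn1a overlap theirs.

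Pdk4 encodes a mitochondrial kinase that phosphorylates and inhibits the pyruvate dehydrogenase complex, an inhibition that shifts fuel use from glucose to fatty acids. Its level was 5.64, 5.20 and 5.37 FPKM in saline replicates 1, 2 and 3 and 6.796, 6.613 and 6.552 FPKM in CFA replicates 1, 2 and 3. Every CFA library lay above every saline library, by at least 0.916 FPKM. The mean went from 5.40 ± 0.218 to 6.65 ± 0.127 FPKM (SD, n = 3 each), a rise of 23.2%. On the log2 scale of FPKM + 1 the change was 0.26 with an SE of 0.047 (limma, adjusted p = 0.00756). The fold on the scale of FPKM + 1 had a 95% interval of 1.11 to 1.29. Its fragments numbered 630 to 891 in saline libraries and 640 to 914 in CFA libraries. The rise was small beside that of Mt2A, and 8.56% of all genes tested rose at least as much. Among the 2910 genes of 5 to 10 FPKM that share was 7.15%.

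Sgk1 encodes the serum- and glucocorticoid-regulated kinase, which acts on ion channels and transporters, partly through the ubiquitin ligase NEDD4L. Its level was 20.18, 20.03 and 20.11 FPKM in saline replicates 1, 2 and 3 and 22.3, 23.1 and 22.0 FPKM in CFA replicates 1, 2 and 3. The saline libraries were nearly equal and all lay below the CFA libraries. The mean went from 20.1 ± 0.0755 to 22.5 ± 0.580 FPKM (SD, n = 3 each), a rise of 11.6%. On the log2 scale of FPKM + 1 the change was 0.15 with an SE of 0.030 (limma, adjusted p = 0.0104). The fold on the scale of FPKM + 1 had a 95% interval of 1.06 to 1.16. With 2683 to 3829 fragments per library, Sgk1 had the most fragments of the 5 genes in each library. The saline variance was 0.0465 times counting noise, lower than in all but 1.59% of genes tested, and the CFA variance was 1.86 times. A variance of 3 libraries is imprecise, so the low saline value is not read as a trait of the gene. Of the genes of 20 to 50 FPKM, whose median log2 change was -0.014, 8.002% rose at least as much as Sgk1.

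Fkbp5 encodes FKBP51, a co-chaperone in the receptor's HSP90 complex that lowers its affinity for hormone and closes a short feedback loop. Its level was 3.73, 4.18 and 3.95 FPKM in saline replicates 1, 2 and 3 and 4.112, 4.998 and 4.396 FPKM in CFA replicates 1, 2 and 3. CFA replicate 1 lay below saline replicate 2, so the groups overlapped. The means were 3.95 ± 0.224 and 4.50 ± 0.453 FPKM (SD, n = 3 each), and the log2 difference of 0.15 did not pass (SE 0.073, adjusted p = 0.202, limma). On the log2 scale of FPKM + 1 its estimate was thus like that of Sgk1, while its SE was larger. The 95% interval of the fold on that scale, 0.987 to 1.25, holds both no change and a change as large as that of Pdk4. The mean FPKM of Fkbp5 was 13.9% higher in CFA. With a pseudocount of 0.1 the log2 difference was 0.18 for Fkbp5 and 0.16 for Sgk1. The CFA libraries varied by 6.17 times counting noise, above 87.8% of genes tested, and CFA replicate 2 was the highest. Without CFA replicate 2 the log2 difference was 0.085 (adjusted p = 0.452, limma), and without CFA replicate 1 it was 0.20 (adjusted p = 0.132, limma).

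Cdkn1a encodes p21, an inhibitor of cyclin-dependent kinases that halts the cell cycle. Its level was 3.38, 3.63 and 3.16 FPKM in saline replicates 1, 2 and 3 and 3.95, 3.19 and 3.50 FPKM in CFA replicates 1, 2 and 3. The groups were interleaved. The means were 3.39 ± 0.235 and 3.55 ± 0.386 FPKM (SD, n = 3 each), with a log2 difference of 0.048 (SE 0.078, adjusted p = 0.721, limma). The fold had a 95% interval of 0.912 to 1.17 on the scale of FPKM + 1. Its fragments numbered 207 to 359 per library, and the variance was 1.39 times counting noise among the saline libraries and 3.23 times among the CFA libraries. The sign of its difference was not stable, being -0.015 on the log2 scale without CFA replicate 1 and -0.023 with quantile scaling.

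**Figure D3:**
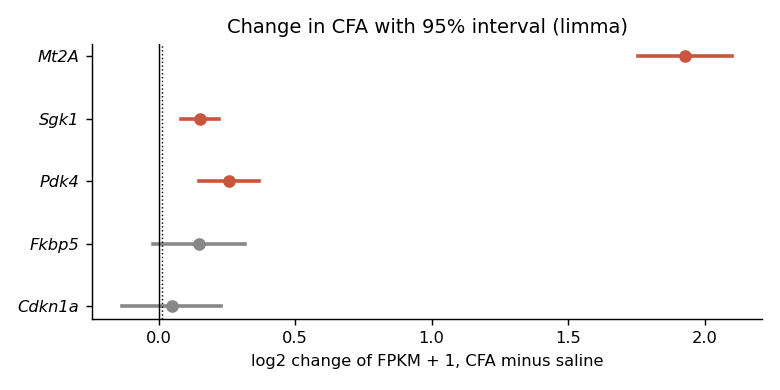
Log2 change of FPKM + 1, CFA minus saline, for each gene with its 95% interval from limma over 3 libraries per group; red marks an adjusted p under 0.05, the solid line is 0 and the dotted line the median of all genes tested, 0.012. The interval of Mt2A lies far to the right of the others, and those of Fkbp5 and Cdkn1a include 0.

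The order of the levels, which FPKM give per length, changed at the top. In saline Sgk1 (20.1 FPKM) and Mt2A (18.9 FPKM) came first with overlapping libraries, followed by Pdk4, Fkbp5 and Cdkn1a, whose libraries did not overlap with their neighbours in the order. In CFA Mt2A came first, then Sgk1, Pdk4, Fkbp5 and Cdkn1a, with no overlap between neighbours. Among all genes tested, 91.3% had a lower mean over the 6 libraries than Mt2A, 78.8% lower than Sgk1, 42.3% lower than Pdk4, 31.9% lower than Fkbp5 and 26.6% lower than Cdkn1a.

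Ratios of a pair of genes within the same library describe how the genes changed relative to each other. The 4 pairs with Mt2A, whose ratios did not overlap between CFA and saline, all carry the change of Mt2A described above and are not separate results. The log2 ratio of Sgk1 to Mt2A, of FPKM + 1, went from 0.089 ± 0.170 in saline to -1.69 ± 0.040 in CFA (SD, n = 3 each). Exact permutation of 3 against 3 libraries, two-sided, cannot give less than p = 0.1, so none of the 10 pairs could pass; 6 reached that value (adjusted p = 0.167 over 10 pairs). The share of all gene pairs without overlap was not computed, and the groups of single genes did not overlap in 37.7% of those tested. Beside the pairs with Mt2A, 2 pairs with Pdk4 did not overlap. Both carry the rise of Pdk4 described above and are not separate results, and the test could not decide on them. The ratio of Pdk4 to Sgk1 was higher in CFA, the log2 ratio of Sgk1 to Pdk4 going from 1.72 ± 0.044 to 1.62 ± 0.043, and so was its ratio to Cdkn1a, from 0.55 ± 0.107 to 0.75 ± 0.105 (SD, n = 3 each). The log2 ratio of Sgk1 to Fkbp5 was 2.09 ± 0.070 in saline and 2.09 ± 0.090 in CFA (exact p = 1), a difference of 0.0021 that became -0.022 with a pseudocount of 0.1.

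Few genes lay near Mt2A in pattern. The measure includes the size of the rise, so this is not a separate result. Profiles of log2(FPKM + 1), each less its saline mean, were compared over the 6 libraries by Euclidean distance. Within a distance of 0.5 of Mt2A lay 18 genes, against 10785 for Sgk1, 10147 for Fkbp5, 7184 for Pdk4 and 11303 for Cdkn1a. Sgk1 was the nearest of the other 4 to Fkbp5, at 0.162, and Sgk1 ranked 224 in nearness to Fkbp5 among all genes tested. The nearest genes are not named, since their identifiers have no symbol in the tables used here. Distances reflect the size of the change and the scatter between libraries and are given as a description over 6 libraries.

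**Figure D4:**
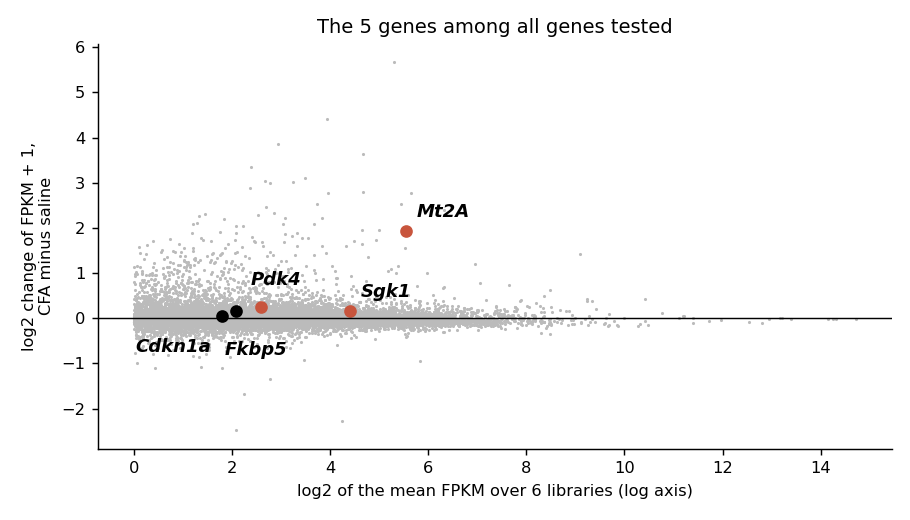
Log2 change of FPKM + 1, CFA minus saline, against log2 of the mean FPKM over 6 libraries for the 13566 genes tested (grey), with the 5 genes marked, red where the adjusted p was under 0.05 and black where it was not. Mt2A lies among the 33 genes of the largest rise, and the other 4 lie within the bulk of genes.

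The calls of Mt2A, Pdk4 and Sgk1 held in all 18 other settings tried, and Fkbp5 and Cdkn1a passed in 0 of the 17 in which each was tested. Over these settings the log2 change ranged from 1.86 to 2.02 for Mt2A, from 0.21 to 0.30 for Pdk4, from 0.13 to 0.17 for Sgk1 and from 0.074 to 0.20 for Fkbp5. The highest adjusted p (limma) was 6.07e-05 for Mt2A, 0.0311 for Pdk4 and 0.0366 for Sgk1.

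**Figure D5:**
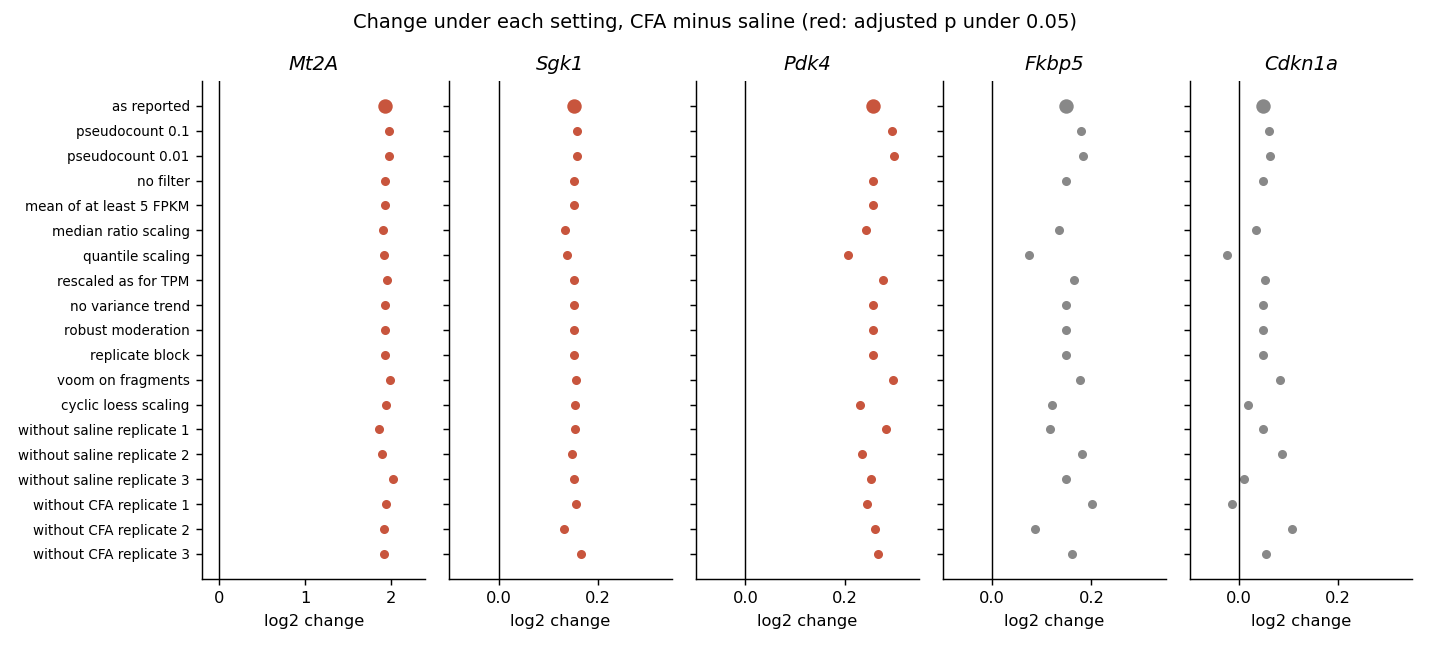
Log2 change of each gene, CFA minus saline, under each setting, with the reported value at the top as a larger point and red marking an adjusted p under 0.05. Mt2A has an axis of its own; all its points lie between 1.86 and 2.02, and the points of Cdkn1a lie on both sides of 0.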

How the data were processed

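Sample titles gave each library its group and replicate number. The authors deposited FPKM values, 1 column per library, and 0 per-sample columns were left unused. The build mRatBN7.2 and the tools HISAT2 2, StringTie 2, fastp 0.21.0 and DESeq2 1.30.1 are named in the submitters' processing notes without roles; the sources used here give no counter or annotation. Per the labels' protocols, libraries were made from poly-T selected RNA and read as paired ends.

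FPKM values moved in whole steps, from which fragments and gene lengths were computed: 22972 genes (99.98%) came out whole within 0.0001 in all 6 libraries, with totals of 27534174 to 44977905 fragments. A fragment may be a read or a pair. Library totals are known only up to a small factor and were chosen by the divisibility of fragments and lengths. A length is known only up to a shared divisor, and multiples of counting noise carry these doubts. Genes whose mean reached 1 FPKM were tested with limma 3.58.1 in R 4.3.3 (eBayes with trend, 4 residual degrees of freedom, two-sided) on log2(FPKM + 1), which understates changes of low genes. Variance over counting noise used fragments of 3 libraries a group. Exact permutation tests used scipy 1.17.1, and figures matplotlib 3.10.9 in Python 3.11.15. The scripts were tested on simulated data. Promoters came from RefSeq (GRCr8), matched by symbol for 5 of 5 genes; protein sequences were not used here.

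The members and lists were chosen with earlier results of these data known. The rule for named genes took the 5 members, up to 4 genes of each list and the 2 genes with a symbol most like each member in pattern. For want of symbols the 25 lists of pathway genes and cell markers were not analysed here and no gene was named by pattern, so the 5 members are the only genes with values. Alternatives covered pseudocount, filter, scaling, variance moderation, replicate block, voom on fragments and each library left out; cyclic loess scaling was added after seeing the data.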

Additional observations from a re-analysis of the deposited data

How the results depend on the processing

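The settings changed no call among the 5 genes. The log2 difference of Cdkn1a, 0.048 as reported and past no threshold, turned to -0.023 with quantile scaling and ranged from -0.015 to 0.11 with each library left out. Leaving out each library gave 1.86 to 2.02 for Mt2A, 0.24 to 0.28 for Pdk4, 0.13 to 0.17 for Sgk1 and 0.085 to 0.20 for Fkbp5. The difference in log2 ratio of Sgk1 to Fkbp5, 0.0021, was -0.022 with a pseudocount of 0.1; the other 9 pairs kept their sign. Of all genes tested, 2545 passed as reported (limma), and 1758 to 1997 with each library left out. The 1015 lower genes became 666 with no variance trend and 600 to 781 with each library left out (600 without saline replicate 1, 635 without saline replicate 3); fewer libraries enter such fits, and the cause of the 666 was not tested. The calls were 60.1% higher as reported and 46.3% with quantile scaling (1197 higher, 1391 lower). Under a replicate block 2086 genes passed and the log2 changes were as reported, with adjusted p (limma) of 2.62e-05 for Mt2A, 0.0222 for Pdk4, 0.0324 for Sgk1, 0.146 for Fkbp5 and 0.737 for Cdkn1a; deviations of same-numbered libraries from their group means had correlations between -0.021 and 0.023 across genes, so the numbers were not taken as pairs. With a mean of at least 5 FPKM, Fkbp5 and Cdkn1a were not tested. Alternatives for the gene lists were not run for want of symbols.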
